A study of Homo sapiens with 2 samples.

Results

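The calpain system of the hepatoma line PLC8024 was examined across 10 genes: 8 genes of catalytic calpain subunits, CAPN1, CAPN2, CAPN5, CAPN7, CAPN8, CAPN9, CAPN10 and CAPN13, the small regulatory subunit CAPNS1 and the inhibitor CAST. They are 10 of the 58735 genes in the deposited tables, taken by gene symbol. The set was chosen by family around CAPN8, whose large difference in this same comparison was already known, so the values are a description and no test was made of them. RNA of PLC8024 cells, a cultured human liver cancer line also called PLC/PRF/5, was sequenced as 1 library of untreated wild-type cells (MAEL WT) and 1 library of cells in which MAEL, a cancer/testis gene, was disrupted with Cas9 and an sgRNA (MAEL KO). The labels give the cell type as Alexander cells and the same line for both libraries. Knockout cells were sorted for mCherry and seeded for single clones per the study's methods. The MAEL KO library may therefore stand for a single clone, and clonal differences and the knockout cannot be told apart. With 1 library per condition there is no replicate error, and every interval covers counting error only. Values in brackets after a log2 fold change are its 95% limits.

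Calpains are cytosolic cysteine proteases that are switched on by calcium and cut their substrates at a few sites, which alters a protein's function without destroying it. The classical enzymes are pairs of a catalytic subunit, CAPN1 (µ-calpain) or CAPN2 (m-calpain), and the shared small subunit CAPNS1, and they are held in check by calpastatin, the product of CAST. In most tissues these ubiquitous enzymes act in cell spreading, adhesion turnover and cell death, whereas CAPN8 and CAPN9 are best known from the lining of the stomach and gut, where their products form a complex called G-calpain.

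The libraries held 19904136 (MAEL WT) and 20833332 (MAEL KO) counts. At these depths 3 counts, used here as the floor of detection, correspond to 0.151 and 0.144 CPM (counts scaled to a common library total). MAEL itself had 1 and 0 counts, so the labels could not be checked by the targeted transcript. Of 11 hepatocyte markers all were detected in both libraries. The secreted liver proteins APOB, SERPINA1 and FGB had 30817 counts or more in each library, but ALB, AFP and TTR had 59, 26 and 20 counts in MAEL WT. Among 10 markers of immune, endothelial and fibroblast-like cells, 7 had at most 5 counts in either library, PTPRC, VWF, DCN and LUM among them. The other 3 were detected in both, with 348 and 392 counts of PECAM1, 122 and 29 of PDGFRB and 92 and 11 of COL1A1 in MAEL WT and MAEL KO.

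CAPN8 was present in MAEL WT at the level of the ubiquitous calpains and was nearly absent from MAEL KO. Its gene (ENSG00000203697) is on the minus strand of chromosome 1, between 223538007 and 223665734 in GRCh38. The longest coding transcript of CAPN8 in GENCODE 29 has 21 exons and 2109 coding bases. CAPN8 had 1099 counts in MAEL WT and 8 counts in MAEL KO. After scaling by TMM factors these are 1024 and 8.63 normalized counts, or 119-fold less in MAEL KO, and -6.73 (-8.11 to -5.91) as a log2 fold change. The log2 fold change, always MAEL KO over MAEL WT, is taken after adding 1 to both normalized counts, and its limits come from the counts alone. Genes below 10 counts in both libraries were set aside, which left 17887. Among the 17008 of these genes that were above the floor in both libraries, CAPN8 had the lowest log2 fold change. That requirement leaves out genes that MAEL KO nearly lacked, and among the 9052 protein-coding genes with at least 300 counts in MAEL WT, whatever their MAEL KO count, CAPN8 ranked 4 from the lowest. Both ranks rest on the added count. With 1 added BST2 and PTGS2 were below CAPN8 and MUC2 was above it. With 5 added CAPN8 was at -6.24, BST2 and PTGS2 were above it at -5.58 and -5.92, and MUC2 was below it at -6.26. In bulk RNA, fewer cells with a transcript and less transcript per cell cannot be told apart.

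Of the 10 genes in the set, 9 were compared in this way and CAPN13, with 0 counts in both libraries, was not. A log2 fold change above 2 or below -2 was passed by CAPN8 and CAPN9, both lower in MAEL KO, and by no gene that was higher. This is only the fold part of the study's cut-off, which also used an adjusted p value that was not computed here. Among all 17887 genes compared, 7.80% passed this fold in either direction and 5.64% were lower past it. These are 387 higher and 1008 lower genes, which became 269 and 1309 with total counts. The other 7 genes lay between -1.03 and 0.51, with 4 above 0 and 3 below 0. The median of the 9 genes was -0.28, beside -0.04 over all genes tested.

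**Figure D1:**
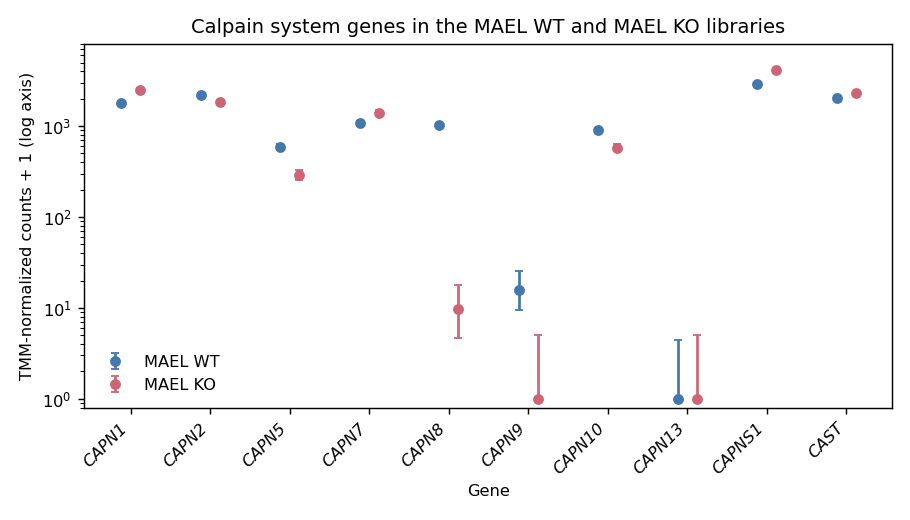
Normalized counts plus 1 (log axis) of the 10 calpain system genes in the MAEL WT library (blue) and the MAEL KO library (red), with exact 95% Poisson intervals of the counts. CAPN8 stands at 1024 normalized counts in MAEL WT and at 8.63 in MAEL KO, while 7 of the other genes lie at 289 or higher in both libraries, CAPN9 goes from 14.9 to 0 and CAPN13 is at 0.

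CAPN9, which encodes the partner of CAPN8 in G-calpain, is on the plus strand of the same chromosome arm (ENSG00000135773, 230747384 to 230802003). Its transcript had 16 counts in MAEL WT and 0 in MAEL KO. Against the floor of 3 counts this is at least 4.61-fold lower in MAEL KO, and the limit of its 95% interval nearest to 0 was a log2 fold change of -1.74. Its place past the fold depends on the added count, since its log2 fold change was -3.99 with 1 added and -1.99 with 5 added. CAPN9 was thus a minor transcript in MAEL WT, at 0.282 FPKM beside 9.68 FPKM for CAPN8. FPKM, the deposited level corrected for gene length and library size, is used wherever levels of different genes are set side by side.

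The transcripts of the 2 classical enzymes differed in opposite directions. CAPN1, the catalytic subunit of µ-calpain on chromosome 11 (65180566 to 65212006, plus strand), had 1904 counts in MAEL WT and 2337 in MAEL KO, or 0.51 (0.42 to 0.59) on the log2 scale. CAPN2, the catalytic subunit of m-calpain, had 2377 and 1692 counts, or -0.28 (-0.37 to -0.19) on the log2 scale. Inside each library, where the scaling between libraries plays no part, there were 80.1 CAPN1 counts per 100 CAPN2 counts in MAEL WT and 138 in MAEL KO, a log2 difference of 0.79 (0.66 to 0.91). Per length, CAPN2 and CAPN1 were at 12.4 and 11.5 FPKM in MAEL WT, with overlapping intervals, and at 10.2 and 16.3 FPKM in MAEL KO, where CAPN1 was the higher.

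CAPNS1, the small subunit that both enzymes share (chromosome 19, 36139575 to 36150353, plus strand), had 3101 and 3810 counts, or 0.51 (0.44 to 0.58) on the log2 scale. Relative to the summed counts of CAPN1 and CAPN2 it went from 72.4 to 94.6 counts per 100, a log2 difference of 0.38 (0.29 to 0.48). CAST, the inhibitor of the classical enzymes (chromosome 5, 96525267 to 96779595, plus strand), had 2198 and 2116 counts, or 0.16 (0.07 to 0.24) on the log2 scale. This sign turns with the scaling, since CAST was at -0.12 with total counts, under which the median of all genes tested moved from -0.04 to -0.31. Relative to CAPN1 plus CAPN2, CAST stood at 51.3 counts per 100 in MAEL WT and 52.5 in MAEL KO. The log2 difference of this ratio of inhibitor to protease was 0.03 (-0.07 to 0.14), so a difference was not detectable at this depth.

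CAPN5, a calpain without the calcium-binding domain that joins the small subunit, had the largest difference among the well-counted genes other than CAPN8. CAPN5 (chromosome 11, 77066941 to 77126155, plus strand) had 636 counts in MAEL WT and 268 in MAEL KO, or -1.03 (-1.25 to -0.83) on the log2 scale. CAPN10, a further non-classical calpain known as a candidate gene for type 2 diabetes (chromosome 2, 240586716 to 240617705, plus strand), had 967 and 538 counts, or -0.63 (-0.79 to -0.48) on the log2 scale. CAPN7, whose product binds the ESCRT machinery of membrane sorting (chromosome 3, 15206152 to 15252918, plus strand), had 1150 and 1305 counts, or 0.39 (0.28 to 0.51) on the log2 scale. The non-classical calpains were thus not of 1 kind, with CAPN5 and CAPN10 lower and CAPN7 higher in MAEL KO. With total counts CAPN5 and CAPN10 were at -1.31 and -0.91, CAPN1 and CAPNS1 were both at 0.23 and CAPN7 at 0.12, and CAPN2 was at -0.56, so these directions held under both scalings.

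To place these sizes, the 9325 genes with at least 300 counts in MAEL WT were taken as background. The quartiles of their log2 fold changes were -0.33 and 0.48. Of the 8 calpain system genes at this depth, CAPN2, CAPN7 and CAST lay inside that range, and CAPN1 and CAPNS1 lay just above it. A lower value than that of CAPN10 was found in 13.6% of the background genes and a lower value than that of CAPN5 in 6.27%, but a lower value than that of CAPN8 in 0.0322%. Past the fold in the lower direction were 1.51% of these genes. CAPN8 was chosen with its difference known and reached 300 counts in MAEL WT only, so its place in this background is a description. That place also rests on the added count.

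**Figure D2:**
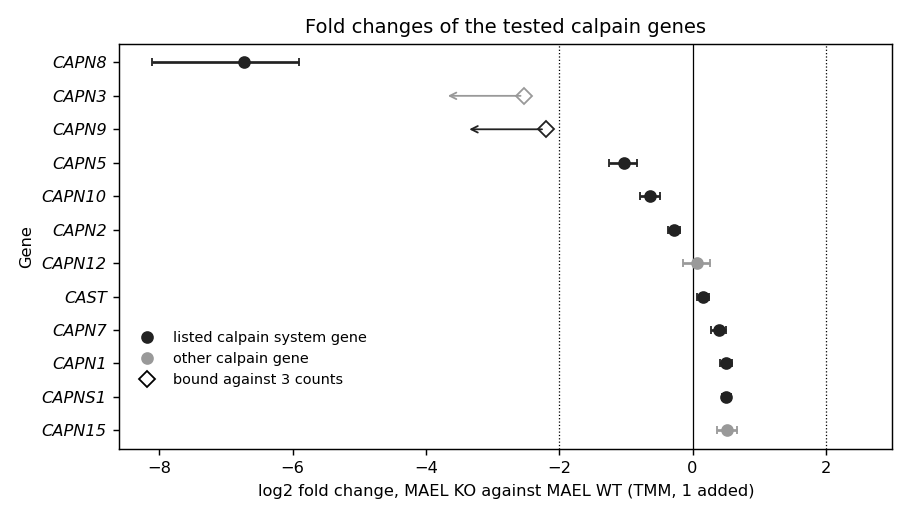
Log2 fold change (MAEL KO over MAEL WT) of the calpain genes that had at least 10 counts in 1 library, with 95% intervals from counting error; listed genes are black, other calpain genes grey, and open diamonds with arrows are bounds against 3 counts. CAPN8 is at -6.73, CAPN9 and CAPN3 are bounds beyond -2, and the other genes lie between -1.03 and 0.51.

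The contrast of CAPN8 with the ubiquitous calpains was also taken inside each library. In MAEL WT there were 46.2 CAPN8 counts per 100 counts of CAPN2, and in MAEL KO there were 0.473, a log2 difference of -6.61 (-7.83 to -5.62). Against CAPN1 the difference was -7.40, against CAPN7 -7.28, against CAPN10 -6.26 and against CAPN5 -5.86. Against the sum of these 5 genes it was -6.91 (-8.12 to -5.92), from 15.6 counts of CAPN8 per 100 down to 0.13. No choice of reference among the 7 other well-counted genes brought the log2 difference above -5.86, and its interval in that case ended at -4.84.

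**Figure D3:**
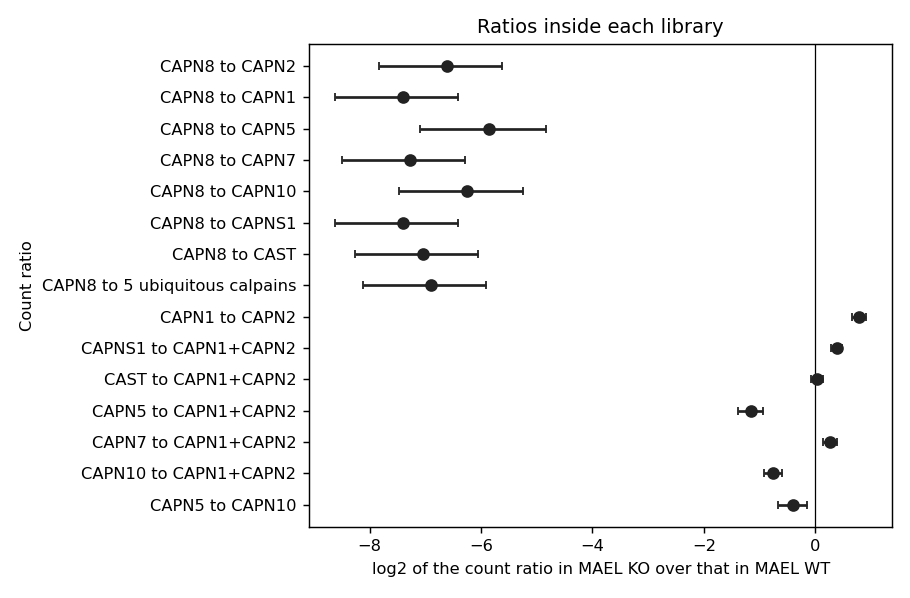
Log2 of a count ratio in MAEL KO over the same ratio in MAEL WT, with exact 95% intervals; these ratios do not depend on how the libraries are scaled to each other. The 8 ratios with CAPN8 in the numerator lie between -7.40 and -5.86, while the ratios among the other genes lie between -1.16 and 0.79 and that of CAST to CAPN1 plus CAPN2 is at 0.03.

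On the FPKM scale, the order of levels in MAEL WT was CAPNS1 at 40.8, CAPN2 at 12.4, CAPN1 at 11.5, CAPN8 at 9.68, CAPN7 at 9.39, CAST at 8.07, CAPN10 at 5.92, CAPN5 at 4.72 and CAPN9 at 0.282, with CAPN13 listed at 0. Neighbours in this order whose counting intervals overlapped were CAPN2 and CAPN1, and CAPN8 and CAPN7. In MAEL KO the order was CAPNS1 at 57.8, CAPN1 at 16.3, CAPN7 at 12.3, CAPN2 at 10.2, CAST at 8.97, CAPN10 at 3.80, CAPN5 at 2.30 and CAPN8 at 0.0813, and none of these neighbours had overlapping intervals. CAPN8 thus ranked 4 of the 10 genes in MAEL WT and 8 in MAEL KO. This order rests on the listed length, which adds up all exons of a gene. With the length of the longest coding transcript instead, CAST was above CAPN1 and CAPN2 in both libraries, and its ratio to their sum was 0.675 in MAEL WT in place of 0.338. CAPN7 was then below CAPN10 in MAEL WT and below CAPN2 in MAEL KO, and CAPN8 ranked 5 in MAEL WT and 8 in MAEL KO.

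The 14 genes named CAPN with a number, which include CAPN3, CAPN6, CAPN11, CAPN12, CAPN14 and CAPN15 besides the listed ones, summed to 61.1 FPKM in MAEL WT and 53.7 in MAEL KO. CAPN8 made up 15.8% of this sum in MAEL WT and 0.151% in MAEL KO. CAPN1 went from 18.9% to 30.4%, CAPN7 from 15.4% to 22.9%, CAPN2 from 20.2% to 18.9%, CAPN10 from 9.67% to 7.07% and CAPN5 from 7.72% to 4.27%. CAPN15 went from 6.36% to 10.3%. By the longest coding transcript the share of CAPN7 was 9.12% and 14.0%, and that of CAPN8 was 15.6% and 0.154%. The shares do not depend on the scaling of the libraries, but the sums do, and per total counts they were 67.2 and 48.9.

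**Figure D4:**
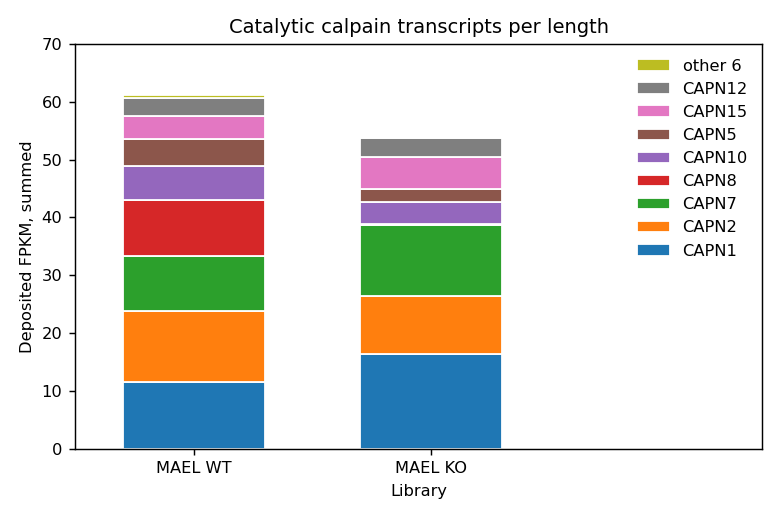
Deposited FPKM of the genes named CAPN with a number, stacked for the MAEL WT and MAEL KO libraries, with the 6 genes of lowest level (CAPN3, CAPN6, CAPN9, CAPN11, CAPN13 and CAPN14) joined in 1 segment. The total is 61.1 in MAEL WT and 53.7 in MAEL KO, and the CAPN8 segment goes from 9.68 to 0.0813.

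Of 8 further genes of the calpain family, 3 had at least 10 counts in 1 library. CAPN3, the calpain of skeletal muscle, had 20 counts in MAEL WT and 0 in MAEL KO, at least 5.76-fold lower, with -2.09 as the limit of its log2 interval nearest to 0. CAPN15, the human relative of the fly gene small optic lobes, had 679 and 837 counts, or 0.51 (0.36 to 0.66) on the log2 scale. CAPN12, described in hair follicles, had 404 and 364 counts, or 0.06 (-0.15 to 0.27) on the log2 scale, a value that was -0.22 with total counts. CAPN11 had 6 and 2 counts, CAPN14 had 2 and 1, CAPNS2 and ADGB had 1 and 0 each, and CAPN6 was at 0 in both.

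CAPN8 and CAPN2 are neighbours on chromosome 1 and point away from each other, with the outermost starts in the gene coordinates 35.9 kb apart. CAPN2 covers 223701593 to 223776018 on the plus strand. Within 500 kb of CAPN8, 6 genes were tested, and none passed the fold that 7.80% of all genes compared passed. CAPN2 was 1 of them. The nearest after it was TP53BP2, a p53-binding protein, with 1116 and 984 counts and a log2 fold change of 0.03. FBXO28, an F-box protein, was at 0.23, the pseudogenes GTF2IP20 and AC138393.1 were at -0.67 and -0.72, and the lincRNA AC138393.3, with 38 and 13 counts, was at -1.28. TP53BP2 and FBXO28 were at -0.25 and -0.05 with total counts. Within 1 Mb, 0 of 20 tested genes passed the fold, a count too small to set the region apart from that share, and their log2 fold changes ran from -1.28 to 0.84.

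The regions just before the start sites of CAPN8, CAPN9 and CAPN2 are shown because they set the restricted genes beside a ubiquitous neighbour that RefSeq gives a CpG-poor and a CpG-rich start. Each is the 250 bases before a RefSeq start site on GRCh38.p14, 5′ to 3′ on the gene's strand, and capitals mark CpG dinucleotides. CAPN8 is chr1:223665702-223665951 on the minus strand, CAPN9 is chr1:230747138-230747387 on the plus strand, and the CAPN2 regions are chr1:223701347-223701596 and chr1:223712289-223712538 on the plus strand.
CAPN8: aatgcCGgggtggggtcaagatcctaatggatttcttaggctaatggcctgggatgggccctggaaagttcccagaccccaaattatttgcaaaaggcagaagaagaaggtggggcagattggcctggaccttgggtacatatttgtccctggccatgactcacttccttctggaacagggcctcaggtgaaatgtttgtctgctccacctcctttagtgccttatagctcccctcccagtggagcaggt
CAPN9: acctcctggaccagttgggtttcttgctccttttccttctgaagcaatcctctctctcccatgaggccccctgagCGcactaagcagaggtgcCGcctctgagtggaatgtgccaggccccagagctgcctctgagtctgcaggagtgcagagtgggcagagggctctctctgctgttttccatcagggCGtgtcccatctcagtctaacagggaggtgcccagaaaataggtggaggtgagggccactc
CAPN2, upstream start: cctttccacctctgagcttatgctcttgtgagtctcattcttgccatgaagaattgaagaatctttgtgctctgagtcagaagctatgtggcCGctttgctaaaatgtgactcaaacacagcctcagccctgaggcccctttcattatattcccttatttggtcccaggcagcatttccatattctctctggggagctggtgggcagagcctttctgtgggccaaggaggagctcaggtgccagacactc
CAPN2, downstream start: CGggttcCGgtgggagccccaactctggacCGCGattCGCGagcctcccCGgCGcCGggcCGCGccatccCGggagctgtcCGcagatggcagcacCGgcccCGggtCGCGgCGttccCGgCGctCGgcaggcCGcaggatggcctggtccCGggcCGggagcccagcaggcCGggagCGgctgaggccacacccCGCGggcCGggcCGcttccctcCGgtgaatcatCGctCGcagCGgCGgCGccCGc

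CAPN8 had 1 CpG in this window, CAPN9 had 3, and CAPN13, which was at 0 counts, had 3. The median over 35114 RefSeq windows of this kind was 11. CAPN7 and CAPN10 had 31 each, the 3 windows of CAPN1 had between 18 and 24, and the windows of CAPN2 had 1 and 37. CAPNS1 had 28 and 11, CAST had between 2 and 26 over 5 windows, and CAPN5 has no entry in the table. A GC box (GGGCGG, either strand), held by 42.6% of all windows, was not among the letters of the CAPN8, CAPN9 and CAPN2 windows. It was found in those of CAPN7, CAPN10 and CAPN13, in both of CAPNS1, in 2 of the 3 of CAPN1 and in 4 of the 5 of CAST. An AP-1 site (TGACTCA, either strand), held by 4.20% of all windows, was found 1 time in the CAPN8 window, 2 times in the upstream window of CAPN2 and 1 time in a window of CAST, and in no other. A TATA box (TATAAA, 10.7% of all windows) was found in 1 window of CAST only. CCAAT (32.01%) was found in the windows of CAPN8, CAPN10 and CAPN13 and in some of those of CAPN1 and CAST. It was not found in those of CAPN9, CAPN2, CAPN7 and CAPNS1. Both strands were searched for each. Which start sites these cells used was not measured, and a match is a description of letters, not of binding.

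Reads could be shared between related or overlapping genes. No window of 50 bases of the longest coding transcripts of CAPN8, CAPN2, CAPN1, CAPN5, CAPN7, CAPN10, CAPN13 or CAPNS1 occurred in a GENCODE 29 transcript of another gene. The coding sequences of CAPN8 and CAPN2 were identical at 70.8% of 2033 aligned bases. In CAPN9 3.11% of windows and in CAST 3.41% were shared with genes that overlap them on the opposite strand. For CAST 1 of these is ERAP1, an aminopeptidase of antigen processing, with 1235 and 597 counts and a log2 fold change of -0.84. CAPN10 overlaps GPR35, a receptor gene on the same strand with 201 and 124 counts and a log2 fold change of -0.48, and CAPN1 overlaps the antisense gene AP003068.2, with 37 counts in each library. The strand setting of the counting is not given in the sources used here, so reads in the overlaps on opposite strands may have been assigned to either gene. For CAPN10 and GPR35 strand would not separate them.

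Genes around the calpain system were described from lists written with earlier results of these data known. Among 23 known calpain substrates, all with at least 10 counts, none passed the fold, which 7.80% of all genes compared passed, and 15 were above and 8 below 0. All but CDK5R1 had at least 300 counts in MAEL WT, and 1.51% of all genes at that depth were lower past the fold. A count of 0 among 23 genes is too small to set the list apart from either share. The median of the substrates was 0.31, beside -0.04 over all genes compared and 0.09 over genes at that depth. With total counts the substrate median was 0.04, beside -0.31 over all genes compared. The lowest were FLNA, the actin cross-linker filamin A, with 22276 and 7456 counts, at -1.37 (-1.41 to -1.33), SRC, a tyrosine kinase of adhesion sites, at -1.28, and PXN, the adhesion scaffold paxillin, at -0.36. The highest were VCL, which encodes vinculin, at 0.80, ACTN4, an actin-bundling actinin, at 0.67 and CDK5R1, an activator of CDK5 that calpain trims, at 0.66.

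Among 15 genes of calcium entry and calcium stores, 1 passed the fold, beside 7.80% of all genes compared. Below 0 were 9 and above 0 were 6, with a median of -0.47. All but ORAI3 and ATP2B4 had at least 300 counts in MAEL WT, and 1.51% of all genes at that depth were lower past the fold. A count of 1 gene is too small to set the list apart from either share. ATP2A3, a calcium pump of the endoplasmic reticulum, had 723 and 96 counts, or -2.69 (-3.03 to -2.39) on the log2 scale. ITPR3, a calcium release channel, and ORAI2, a channel subunit of store-operated entry, were at -1.13 and -1.02. The calmodulin genes CALM2 and CALM3 were at 0.81 and 0.78, and both stayed above 0.5 with total counts.

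The lysosomal cysteine cathepsins and their inhibitors, the cystatins, form a second protease and inhibitor system. Of 19 listed genes 13 were tested and 2 passed the fold, which 7.80% of all genes compared passed. Both had low counts, namely CTSO with 24 and 2 counts and CSTA with 29 and 4. The median was -0.27. CTSL, cathepsin L, had 8580 and 3189 counts, or -1.22 (-1.28 to -1.16) on the log2 scale. The inhibitor CSTB, cystatin B, had 3228 and 9636 counts, or 1.79 (1.73 to 1.85) on the log2 scale, and CTSV and CTSC were at 1.14 and 0.45.

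Since CAPN8 and CAPN9 are typical of stomach and gut epithelium, 14 markers of that epithelium were listed. Of these 10 were tested, 5 were lower past the fold and none was higher, beside 5.64% lower among all genes compared. Past the fold with at least 100 counts in 1 library were 2, MUC2 and TFF1. The median of the 10 was -2.35, or -1.98 with genes at or under the floor set to their bound. MUC2, a secreted mucin, had 2631 and 25 counts, or -6.46 (-7.14 to -5.94) on the log2 scale, and TFF1, a trefoil peptide, had 177 and 5 counts, at -4.70. TFF2 had 78 and 2 counts, at least 22.5-fold lower, and MUC5AC, the mucin of the gastric surface, had 36 and 1. The markers did not move as 1 group, since CDX2, the intestinal transcription factor, had 191 and 286 counts and a log2 fold change of 0.79, LGALS4 and MUC6 were at 0.27 and -0.35, and GKN1 and GKN2, gastric surface proteins, were at 0 in both libraries. The summed counts of the 14 genes were 11410 in MAEL WT and 2204 in MAEL KO, of which AGR2, a disulfide isomerase of mucin-secreting cells, held 8186 and 1836 and MUC2 held 2631 and 25. AGR2 was at -1.95, inside the fold. Over the 11 hepatocyte markers the sums were 196594 and 482775, and all 11 were above 0, though not all with total counts. Of them 5 were higher past the fold and none was lower, beside 387 higher among the 17887 genes compared. ALB, AFP and APOA1 were the highest at 7.36, 5.85 and 3.60, and APOB and HNF4A were at 0.97 and 1.15. The median of the hepatocyte markers was 1.89. Of the 10 markers of other cell types 3 were compared, and they went both ways, with COL1A1 at -2.75, past the fold, PDGFRB at -1.83 and PECAM1 at 0.38 (0.17 to 0.59). The part of these marker differences in the values of CAPN8 and CAPN9 was not tested.

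**Figure D5:**
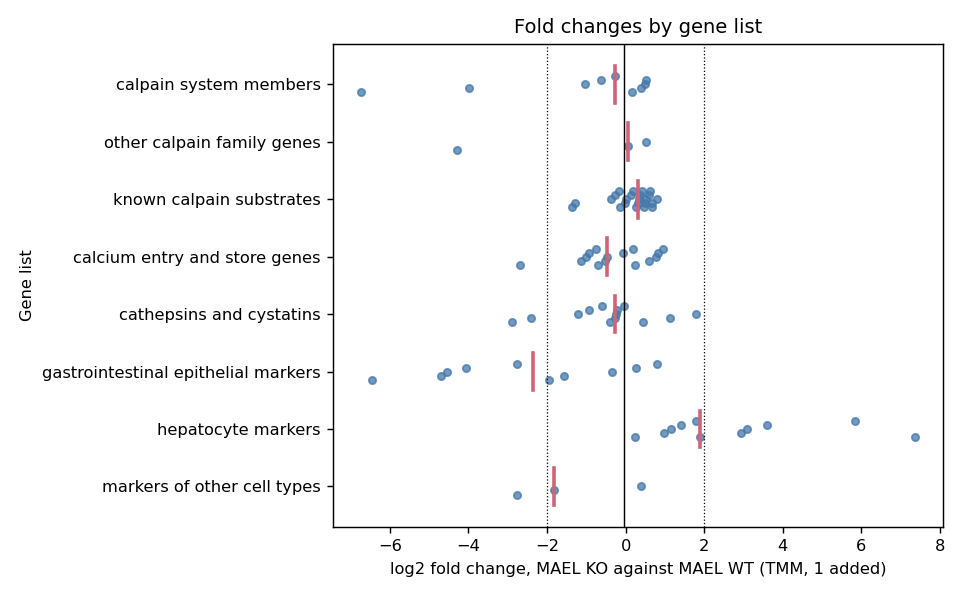
Log2 fold change (MAEL KO over MAEL WT) of every gene compared of each list (points), with the list's median (red bar), the median of all genes tested at -0.04 (solid line) and the cut-offs of 2 and -2 (dotted lines). No calpain substrate lies past the fold, a count too small to set the list apart from the 7.80% of all genes compared that do. Below -2 lie 5 gastrointestinal markers, beside 5.64% of all genes compared. Above 2 lie 5 hepatocyte markers, beside 387 of the 17887 genes compared.

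The 5 protein-coding genes with at least 300 MAEL WT counts whose log2 fold change was nearest to that of CAPN8 were BST2, LTBR, MUC2, KRT81 and PTGS2, by a likeness measured over 2 libraries only. BST2, the interferon-induced tetherin, had 361 and 2 counts, LTBR, the lymphotoxin beta receptor, 318 and 2, KRT81, a hair keratin, 368 and 3, and PTGS2, cyclooxygenase 2, 390 and 1. Against the floor BST2, LTBR and PTGS2 were at least 104-fold, 91.6-fold and 112-fold lower in MAEL KO. KRT81, at 3 counts, had a ratio of 106 (-9.01 to -5.17 on the log2 scale). Their places beside CAPN8 rest on 3 counts or fewer, other than that of MUC2, and on the added count.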

How the data were processed

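Read counts per gene (whole numbers, unscaled) and FPKM values were deposited by the authors. Each FPKM was found to be the count over the gene's listed length and a rescaled library size. The submitters' processing notes name HISAT2 2.0.5, featureCounts 1.5.0-p3 and hg19, but all 58735 genes carry the GRCh38 coordinates of GENCODE 29, which were used. All columns of sample values were used.

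Counts were scaled here by TMM (edgeR 4.0.16, R 4.3.3). Intervals are exact: Clopper-Pearson for fold changes, conditional odds ratios for count ratios and Poisson for levels, at 95%. They include no other error, and without molecular identifiers PCR copies of a molecule count as separate reads. With 1 library per condition no p-value is given. The fold change and its interval were tested on simulated counts with counting error only and known library sizes. The other steps were not tested in this way. Python 3.11.15, NumPy 2.4.6, SciPy 1.17.1, pandas 2.3.3, Biopython 1.88 and matplotlib 3.10.9 were used. Alternatives were DESeq2 1.42.0 size factors, total counts, FPKM values with 0.01 added, other added counts, count filters, a lower threshold and other gene lengths.

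The members and lists were chosen with earlier results of these data known. Named were all calpain genes, up to 3 tested genes at each end of each list, tested genes within 500 kb of CAPN8 or overlapping a member, and the 5 nearest to CAPN8 in fold; some genes that this rule names are not reported here. Promoter windows are from RefSeq (GRCh38.p14), with entries for 9 of the 10 genes.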

Additional observations from a re-analysis of the deposited data

How the results depend on the processing

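No paired analysis was possible because there is 1 library per condition, and for the same reason no library could be left out. CAPN8 against CAPN2 was at -6.45 with FPKM values in place of counts and 0.01 added to each. Since the FPKM values are rescaled counts, this shift comes from the added 0.01 and is not a separate check. Of the calpain system genes, 1 was lower past the fold with 5 added to the counts and 1 for genes with at least 100 counts, because CAPN9 then falls inside the fold or outside the filter. Over all genes, 387 were higher and 1008 lower past the fold. They were 250 and 513 with 5 added, 1029 and 1773 without a filter and 185 and 283 for genes reaching 100 counts. They were 269 and 1309 with total counts. A log2 threshold of 1 gave 1827 and 2951. For genes with at least 100 counts, 0 other calpain genes, 0 cathepsins and cystatins, 2 gastrointestinal markers and 0 markers of other cell types were past the fold, beside 1, 2, 5 and 1. With 5 added, 0 cathepsins and cystatins were, and with total counts 2 markers of other cell types were. With the length of the longest coding transcript, an alternative chosen after seeing the data, CAPNS1 divided by CAPN1 plus CAPN2 was 1.55 in MAEL WT and 1.99 in MAEL KO, in place of 1.71 and 2.18, and CAST divided by the same sum was 0.675 and 0.677, in place of 0.338 and 0.339. Of 57 named genes, 32 moved beyond their counting interval with total counts, and 6 changed sign, none of them past the fold. With the other 4 settings none moved. Among these, DESeq2 size factors and FPKM values left the median of all genes compared at -0.04, so they barely changed the scaling. The fewer genes under stricter filters follow from their construction, and other causes were not tested.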
